A study of Drosophila melanogaster with 12 samples.

Results

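The 8 genes described here encode the epidermal growth factor receptor of Drosophila, its ligands, the protease that releases one of them, and targets through which the pathway acts or limits itself: Egfr, vn, spi, rho, aos, sty, pnt and kek1. They were chosen by their role in the pathway, with earlier results of these data known, and found by FlyBase gene identifier. They are 8 of the 14869 genes in a table of read counts from wing imaginal discs of 3rd instar larvae. The wing disc is the larval tissue that forms the adult wing. All 8 were among the 8346 genes with enough counts to be tested. The table covers 12 mRNA-seq libraries, 3 from each of 4 genotypes, and the comparisons ask how these genes stand in larvae that depend on altered forms of the chromatin protein ASH1, a Trithorax group histone methyltransferase.

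Wild type larvae were w[1118]. The other 3 genotypes were w[1118] larvae with the mutant combination ash1[10]/ash1[22] and a transgene in which the αTubulin promoter, active in all cells, drives an EGFP::ASH1 fusion from one genomic site. The fusion was full-length ASH1 (ASH1 WT), ASH1 without its BAH domain (ΔBAH), or ASH1 without the BAH domain and with the first AT hook mutated as well (ΔBAH mutAT1). The ash1[22] allele ends in a premature stop and ash1[10] has a point mutation in the catalytic SET domain, so endogenous protein is not simply absent, and a maternal contribution of wild type ash1 was present. Each transgenic line therefore differs from wild type in the transgene, the ash1 alleles and the third chromosomes that carry them, and these cannot be told apart in comparisons with wild type. No library has the mutant alleles without a transgene. Within the transgenic lines only the ASH1 variant was meant to differ.

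In Drosophila, EGFR is a receptor tyrosine kinase that signals through Ras and MAP kinase. In the wing disc the ligand Vein acts early in growth and patterning, while in the stripes of cells that will become veins the membrane protease Rhomboid (rho) cleaves the precursor of Spitz (spi) so that it can be secreted. Signalling then raises transcription of genes that restrain it: Argos (aos) is a secreted inhibitor that binds Spitz, Sprouty (sty) acts inside the cell on the Ras branch, and Kekkon-1 (kek1) binds the receptor at the membrane. Pointed (pnt) is an ETS transcription factor that carries the signal into the nucleus. Expression of rho is a marker of provein cells.

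In the current BDGP6 annotation Egfr lies on 2R at 21522420 to 21559977 on the plus strand. The ligand genes are vn on 3L at 5813338 to 5845664 and spi on 2L at 19567900 to 19577315, both on the minus strand. The protease gene rho is on 3L at 1463811 to 1468944, plus strand. Of the feedback genes, aos (16470386 to 16483650) and sty (3401153 to 3424935) are on 3L and kek1 is on 2L at 12817000 to 12822787, all on the minus strand, and pnt is on 3R at 23290231 to 23346167, minus strand. None of the 8 shares exon bases with another annotated gene, so reads over exons are not split by an overlap. The counts themselves were made on the older build dm3, and these positions serve to say where the genes are.

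Library totals ranged from 15083960 to 39180697 counts. The internal sample numbers of the libraries form 3 blocks of consecutive numbers, and the study states that libraries came from 3 sequencing runs; that a block is a run is an inference. Block 1 holds replicate 1 of wild type and of ΔBAH mutAT1, block 2 holds 1 library of each genotype, and block 3 holds the other 6. The 10 wing disc genes checked, among them vg, nub and sd, were read at 26.7 CPM (counts scaled to a library total of 1e6) or more in every library. Counts of ash1, which include the transgene, were 85.6 to 112 CPM in wild type and 155 to 534 CPM in the 9 transgenic libraries, with no overlap. Summed fat body markers reached 2819 CPM in wild type replicate 1 and 361 CPM in wild type replicate 3, against 13.6 to 255 CPM in the other 10 libraries. In bulk tissue, fewer cells of a type and less RNA per cell cannot be told apart, and this holds for every level below.

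Per kilobase of exon, the ligand spi was the most abundant of the 8 in every library, at 166 to 264 RPKM (CPM per kilobase of exon, computed here with BDGP6 exon lengths). The receptor gene followed at 33.8 to 79.0 RPKM, with no overlap with spi. Next came kek1 at 13.9 to 60.0 RPKM, sty at 21.3 to 36.9 and vn at 12.4 to 22.9. Neighbours in this order from Egfr to vn overlapped in range over the 12 libraries. The secreted inhibitor aos stood below them at 9.26 to 11.8 RPKM. The protease gene rho at 4.81 to 9.24 RPKM and pnt at 2.89 to 8.32 RPKM were lowest, and their ranges overlapped.

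**Figure D1:**
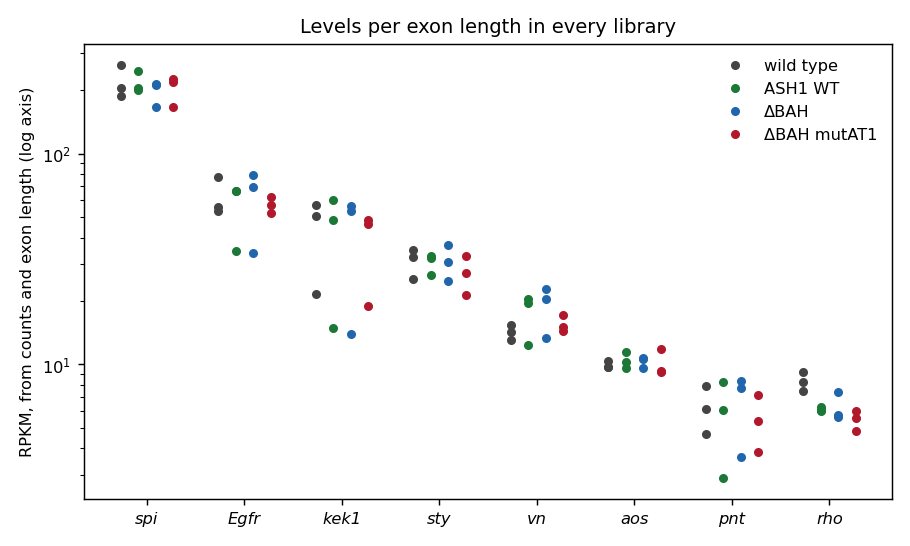
Levels of the 8 genes in RPKM (log axis), one point per library, coloured by genotype and with 3 libraries per genotype. The ligand gene spi lies above all others in every library, between 166 and 264 RPKM, and rho and pnt lie lowest, at or below 9.24 RPKM.

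The gene whose wild type libraries stood apart from the transgenic ones was rho. It was read at 24.9, 27.7 and 22.5 CPM in wild type replicates 1 to 3, and at 18.1, 18.3 and 18.9 CPM in ASH1 WT. The ΔBAH libraries gave 17.3, 17.0 and 22.3 CPM. The ΔBAH mutAT1 libraries gave 16.7, 18.1 and 14.4 CPM. All 9 transgenic libraries thus lay below all 3 wild type libraries, narrowly so for ΔBAH replicate 3, at 22.3 against 22.5 CPM. Each of these values rests on 242 to 988 counts.

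Relative to wild type, the fitted level of rho was 0.735-fold in ASH1 WT (log2 fold change -0.44, SE 0.16), 0.751-fold in ΔBAH (-0.41, SE 0.16) and 0.655-fold in ΔBAH mutAT1 (-0.61, SE 0.16, 95% confidence interval -0.97 to -0.25). None of these passed an adjusted p of 0.05 in edgeR's quasi-likelihood test over all 8346 genes: the adjusted p was 0.365, 0.421 and 0.118. For the mean of the 3 transgenic lines against wild type the log2 fold change was -0.49 (SE 0.13) with an adjusted p of 0.0839 in the same test. The 4 comparisons share the wild type libraries and are not independent of each other. Groups that do not overlap in the lower direction were found for 6.96% of all tested genes in ASH1 WT, 7.17% in ΔBAH, 6.61% in ΔBAH mutAT1 and 3.18% over all 9 transgenic libraries.

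The wild type and ΔBAH mutAT1 libraries of the same replicate number belong to the same block, and with these 6 libraries paired by number rho had a log2 fold change of -0.61 (95% confidence interval -0.83 to -0.39) and an adjusted p of 0.00620 in edgeR's quasi-likelihood test. That fit called 12.3% of the 8253 genes it tested, 6.76% as lower, and was added after the data had been seen. With block as a covariate over all 12 libraries the adjusted p of rho was 0.0290 for ΔBAH mutAT1, 0.129 for ASH1 WT, 0.175 for ΔBAH and 0.0280 for the transgenic mean. In that edgeR fit 6.45%, 7.30%, 6.25% and 11.1% of genes were called in these comparisons. DESeq2's Wald test also called rho, at an adjusted p of 0.0108 for ΔBAH mutAT1 (3.18% of genes called) and 0.0123 for the transgenic mean (4.80%), whereas limma-voom gave 0.0806 (2.37%) and 0.0574 (3.18%). The fold change hardly moved between these fits, from -0.60 to -0.61 in ΔBAH mutAT1, and the tests differ in which side of the threshold it falls.

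Within each block the difference in rho went the same way. Between ΔBAH mutAT1 and wild type it was -0.58 on the log2 scale in block 1, -0.61 in block 2 and -0.64 in block 3, each 1 library against 1. Between ASH1 WT and wild type it was -0.62 in block 2 and -0.28 in block 3, and between ΔBAH and wild type -0.68 and -0.21. The block 2 and block 3 differences for these lines rest on the same wild type libraries, and 1 library against 1 or 2 gives no error of its own. Among the transgenic lines rho did not separate: the log2 fold change was 0.03 between ΔBAH and ASH1 WT (95% confidence interval -0.33 to 0.39), -0.20 between ΔBAH mutAT1 and ΔBAH (-0.56 to 0.17) and -0.17 between ΔBAH mutAT1 and ASH1 WT (-0.53 to 0.20). These intervals leave room for differences about as large as those from wild type.

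Other measures moved with rho in part. Summed markers of adult muscle precursors, cells that lie under the disc epithelium, were 195 to 218 CPM in ΔBAH mutAT1 and 239 to 289 CPM in wild type, with no overlap, but 224 to 289 CPM in ASH1 WT and 237 to 285 CPM in ΔBAH, where they overlapped wild type while rho did not; all 6 markers of that list were detected. Hemocyte markers, the genes of blood cells, summed to 54.9 to 96.4 CPM in ASH1 WT against 25.4 to 44.4 CPM in wild type, with no overlap, but to 27.5 to 72.1 CPM in ΔBAH and 31.8 to 48.1 CPM in ΔBAH mutAT1, where they overlapped wild type. Of the 7 tested markers PPO2, a prophenoloxidase, was not called in edgeR by genotype alone but was by DESeq2 in ASH1 WT (adjusted p 0.00195) and ΔBAH (0.0309). The part of these differences in the rho result was not tested. In wild type replicates 1 to 3 the fat body sum was 2819, 14.95 and 361 CPM, where rho was 24.9, 27.7 and 22.5 CPM. The part of fat body in the rho result was not tested either. Within 50 kb of rho on 3L, 4 other genes were tested, and their log2 fold changes for the transgenic mean ran from -0.24 to 0.06, with 0 at an adjusted p below 0.05 in edgeR. The ash1 gene is also on 3L. On that arm 2.26% of 1504 tested genes were called lower in the transgenic mean. The share was 0.826% to 1.60% on 2L, 2R, 3R and X, 2.90% of 69 genes on chromosome 4 and 1.45% of all genes.

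**Figure D2:**
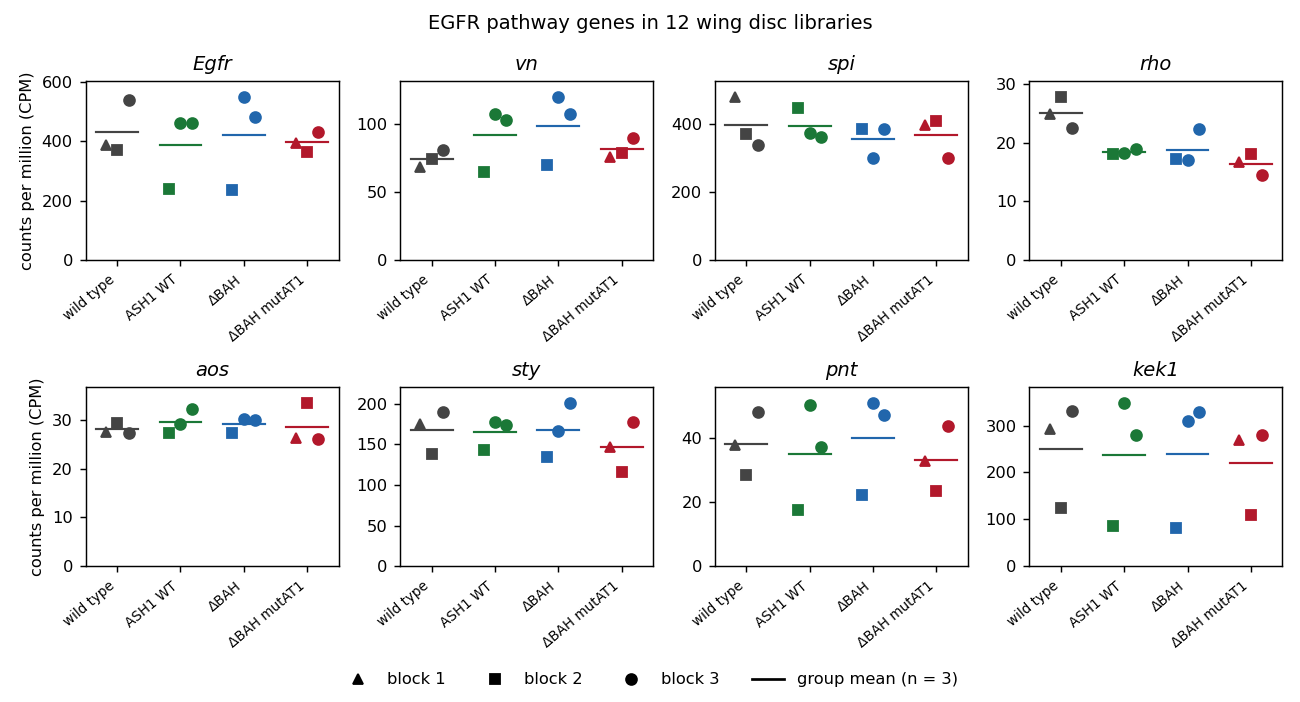
CPM of each gene in the 12 libraries, grouped by genotype, with the shape of the point giving the block of internal sample numbers and the line the mean of 3 libraries. In the rho panel the 9 transgenic libraries, 14.4 to 22.3 CPM, lie below the 3 wild type libraries, 22.5 to 27.7 CPM, while in the kek1 panel the 4 libraries of block 2 lie lowest whatever their genotype.

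The receptor gene Egfr was read at 389, 372 and 538 CPM in wild type and at 239, 462 and 461 CPM in ASH1 WT. In ΔBAH it was 235, 549 and 483 CPM, and in ΔBAH mutAT1 396, 364 and 431 CPM. The groups overlapped, and the lowest libraries of ASH1 WT and ΔBAH were both replicate 1, from block 2. Fold changes against wild type were -0.16, -0.04 and -0.12 on the log2 scale for ASH1 WT, ΔBAH and ΔBAH mutAT1, each with an SE of 0.33. With block as a covariate the difference in ASH1 WT was -0.37 (95% confidence interval -0.72 to -0.02), with an adjusted p of 0.194 in edgeR's quasi-likelihood test.

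The ligand gene vn had its lowest mean in wild type. The wild type libraries gave 68.3, 74.4 and 80.7 CPM, ASH1 WT 65.1, 107 and 103 CPM. The ΔBAH libraries gave 69.7, 120 and 107 CPM and ΔBAH mutAT1 75.9, 78.8 and 89.6 CPM. In both ASH1 WT and ΔBAH the 2 libraries of block 3 lay above every wild type library and the library of block 2 did not. The largest of its fold changes was in ΔBAH, 0.41 on the log2 scale (95% confidence interval -0.10 to 0.92), and it became 0.24 (-0.06 to 0.54) with block as a covariate.

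The other ligand gene, spi, gave 480, 371 and 340 CPM in wild type, 448, 373 and 363 CPM in ASH1 WT. It gave 387, 301 and 386 CPM in ΔBAH and 397, 410 and 302 CPM in ΔBAH mutAT1. All groups overlapped, and fold changes against wild type were -0.01, -0.15 and -0.10 on the log2 scale (SE 0.19 each).

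Of the feedback inhibitors, aos stayed within a narrow range. It was read at 27.5, 29.4 and 27.3 CPM in wild type and 27.3, 29.2 and 32.3 CPM in ASH1 WT. The ΔBAH libraries gave 27.3, 30.2 and 29.9 CPM and those of ΔBAH mutAT1 26.3, 33.4 and 26.1 CPM. The fold change in ASH1 WT was 0.08 on the log2 scale with a 95% confidence interval of -0.24 to 0.39. The other comparisons with wild type gave 0.05 (-0.26 to 0.37) and 0.03 (-0.29 to 0.34).

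The intracellular inhibitor sty gave 176, 138 and 190 CPM in wild type and 144, 177 and 174 CPM in ASH1 WT. It gave 135, 166 and 201 CPM in ΔBAH and 147, 116 and 177 CPM in ΔBAH mutAT1. Its fold changes against wild type, in the same order of lines, were -0.02, -0.0046 and -0.19 on the log2 scale (SE 0.21 each).

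The receptor-binding inhibitor kek1 had the widest spread of the 8 within every genotype. Wild type libraries gave 292, 124 and 331 CPM and ASH1 WT libraries 86.4, 347 and 280 CPM. The ΔBAH libraries gave 80.4, 310 and 328 CPM and ΔBAH mutAT1 270, 109 and 280 CPM. Each genotype thus had a single low library, always that of block 2, and the coefficient of variation within a genotype was 43.6% to 57.7% (n = 3). Fold changes against wild type were -0.07, -0.06 and -0.18 on the log2 scale (SE 0.63 each), and the 95% confidence interval for ASH1 WT was -1.45 to 1.31. Adding block as a covariate, it was -0.57 to 0.05.

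The nuclear effector pnt also had its lowest library in block 2 in every genotype. Its level was 37.8, 28.6 and 48.3 CPM in wild type and 17.7, 50.4 and 37.4 CPM in ASH1 WT. The level was 22.3, 50.9 and 47.3 CPM in ΔBAH and 32.9, 23.5 and 43.7 CPM in ΔBAH mutAT1. Its fold changes against wild type were -0.12, 0.07 and -0.20 on the log2 scale (SE 0.41 each). In the fit with block pnt in ASH1 WT was at -0.37 (95% confidence interval -0.70 to -0.05), with an adjusted p of 0.159 in edgeR's quasi-likelihood test.

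Counted over the 8 genes, 0 passed an adjusted p of 0.05 in any comparison in edgeR's quasi-likelihood test fitted by genotype alone, whereas 1, rho, passed for ΔBAH mutAT1 in the paired edgeR fit and for ΔBAH mutAT1 and the transgenic mean with block as a covariate, as given above. Over all tested genes 1.92% passed for ASH1 WT, 1.93% for ΔBAH, 2.17% for ΔBAH mutAT1 and 3.15% for the transgenic mean. At an unadjusted p below 0.05 the count was 1 of 8, rho, in each of these, against 8.75%, 8.84%, 8.08% and 10.7% of all genes. DESeq2 called 0 of the 8 for ASH1 WT and ΔBAH and 1, rho, for ΔBAH mutAT1 and the transgenic mean; limma-voom called 0 throughout. The median log2 fold change of the 8 genes was -0.05, -0.02 and -0.15 for ASH1 WT, ΔBAH and ΔBAH mutAT1, against 0.0068, 0.0016 and -0.0026 over all tested genes. With block as a covariate it was -0.16, -0.10 and -0.14, so that the lines no longer stood in the same order.

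**Figure D3:**
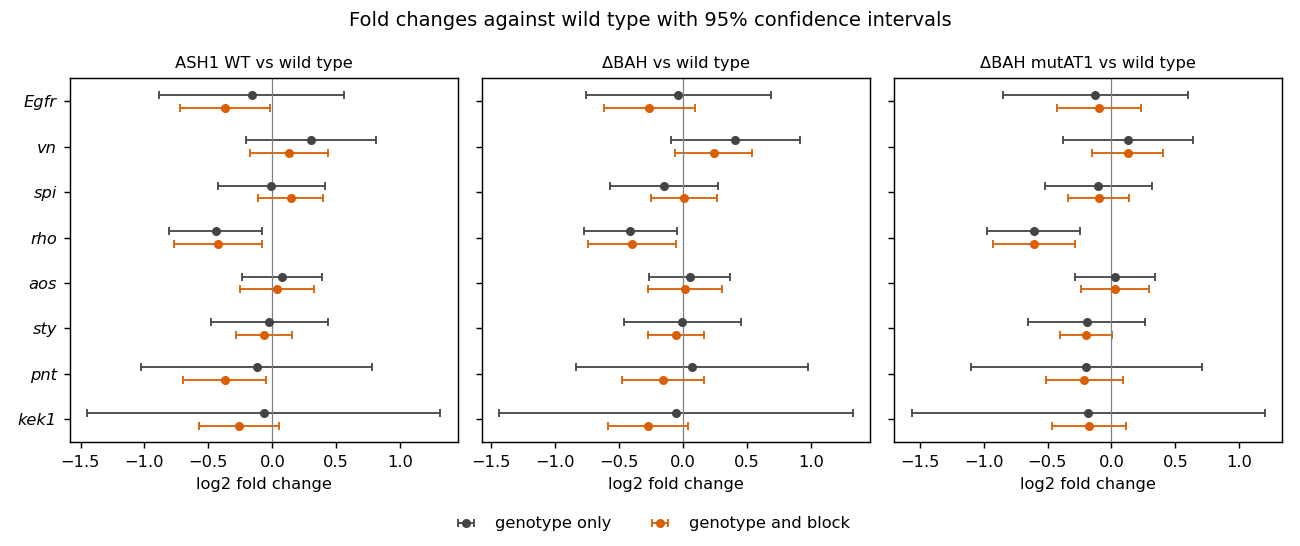
Log2 fold changes of the 8 genes against wild type with 95% confidence intervals from edgeR, fitted with genotype only (grey) and with genotype and block (orange), 3 libraries per genotype. The interval of rho lies below 0 in all 3 panels under both fits, and the interval of kek1 narrows from -1.45 to 1.31 with genotype only to -0.57 to 0.05 with block in ASH1 WT.

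Between the transgenic lines, where only the ASH1 variant was meant to differ, no gene of the 8 separated. The fitted log2 differences ran from -0.14 for spi to 0.19 for pnt between ΔBAH and ASH1 WT, from -0.28 for vn to 0.05 for spi between ΔBAH mutAT1 and ΔBAH, and from -0.17 for vn to 0.04 for Egfr between ΔBAH mutAT1 and ASH1 WT. In edgeR's test 0 of 8 passed an adjusted or an unadjusted p of 0.05 in any of these comparisons, and 0 passed with DESeq2 or limma-voom. Over all genes 0% passed the adjusted threshold for ΔBAH against ASH1 WT and 0.0479% for each comparison of ΔBAH mutAT1, while 1.23%, 1.95% and 2.13% passed the unadjusted one. With the ASH1 WT and ΔBAH libraries paired by number, 0 of 8 passed the adjusted threshold (0.0636% of genes) and 1, pnt, had an unadjusted p below 0.05, at a log2 difference of 0.23 (95% confidence interval 0.0018 to 0.45) and an adjusted p of 0.472 in edgeR. The narrowest intervals between the lines were those of aos, for example -0.34 to 0.29 between ΔBAH and ASH1 WT.

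Most of the 8 genes differed between the blocks. With genotype and block in one edgeR fit, the block term passed an adjusted p of 0.05 for 6 of 8 genes, Egfr, vn, spi, sty, pnt and kek1, and for 61.4% of all tested genes. The largest difference was in kek1, which was 1.69 higher on the log2 scale in block 3 than in block 2 (SE 0.11, adjusted p 4.6e-07 in edgeR), at 280 to 347 CPM against 80.4 to 124 CPM. The difference was 1.05 for pnt, 0.76 for Egfr, 0.46 for vn and 0.44 for sty, and -0.25 for spi. It was -0.07 for rho (adjusted p 0.611) and -0.01 for aos (adjusted p 0.926). Of all genes 29.2% were called higher and 35.0% lower in block 3 by edgeR, and the median size of the difference was 0.50. For Egfr, sty, pnt and kek1 the 4 libraries of block 2 all lay below the other 8, as they did for 16.7% of all genes. Limma-voom, and an edgeR fit of the 10 libraries of blocks 2 and 3, gave the same 6 calls.

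The size of this difference followed exon length. The 5 genes with the longest exons, Egfr (6947 bp), pnt (6119 bp), kek1 (5788 bp), sty (5438 bp) and vn (5239 bp), were those higher in block 3, while rho (3000 bp), aos (2822 bp) and spi (1817 bp) were not. Over the 7642 tested genes with an exon length, 91.6% of those tested, the Spearman correlation of exon length with the block 3 minus block 2 difference was 0.78, a value across genes, which are not independent replicates. The median difference rose from -0.94 in the 1110 genes with under 1000 bp of exon to -0.0028 at 2000 to 3000 bp and 0.95 in the 631 genes over 6000 bp. In the bin of 5000 to 6000 bp the median was 0.63 and the upper quartile 0.88, so that kek1, at 1.69, stood well above genes of its length, and vn and sty below the median. The genes whose level depended little on block, rho and aos, are those near the length at which the median difference was 0. With genotype differences exon length had a Spearman correlation of -0.07 for ASH1 WT, 0.04 for ΔBAH and -0.25 for ΔBAH mutAT1 against wild type, and of 0.17 for ΔBAH against ASH1 WT, -0.20 for ΔBAH mutAT1 against ASH1 WT and -0.35 for ΔBAH mutAT1 against ΔBAH.

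**Figure D4:**
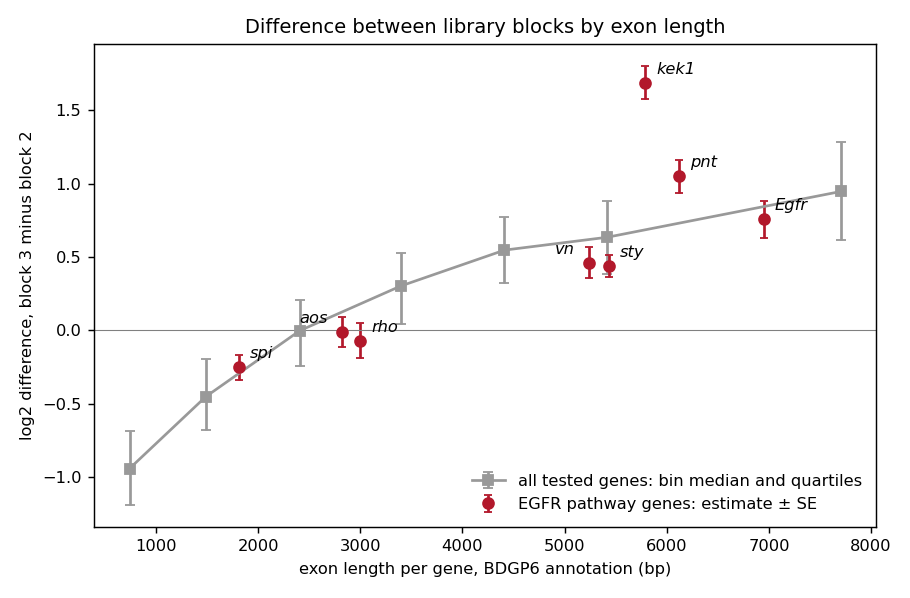
Log2 difference between block 3 and block 2 (y axis) against exon length in the BDGP6 annotation in bp (x axis), from the edgeR fit with genotype and block. Grey squares are medians of all tested genes in bins of exon length with their quartiles, and red points are the 8 genes with their SE; the medians climb from -0.94 to 0.95, with rho and aos near 0 and kek1 at 1.69 above genes of its length.

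The wider pathway was read from lists chosen with earlier results of these data known. Of 8 further ligand and processing genes 6 were tested, and 1 passed: rho-5, a rhomboid-family gene, was higher in ΔBAH mutAT1 than in wild type by 1.74 on the log2 scale (SE 0.38, adjusted p 0.0426 in edgeR), where 2.17% of all tested genes passed. It was read at 0.58, 0.85 and 0.74 CPM in wild type and at 1.78, 3.30 and 2.15 CPM in ΔBAH mutAT1. The ASH1 WT libraries gave 1.12, 1.29 and 1.19 CPM and the ΔBAH libraries 1.14, 1.44 and 0.74 CPM, the former above every wild type library and the latter overlapping them. These are low levels of 11 to 126 counts, and leaving out any 1 of the 12 libraries raised the adjusted p to between 0.0511 and 0.190. DESeq2 and limma-voom also called rho-5, and with the 6 libraries paired by number it stood at 1.71 with an adjusted p of 0.0410 in edgeR. The place of rho-5 on this list does not say that its product cleaves ligands. What the product does to the ligands was not tested.

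No gene of the Ras and MAP kinase cascade (13 tested of 16 listed), of the negative regulators (10 of 10), of the nuclear effectors (5 of 6) or of the wing vein and intervein genes (20 of 24) passed an adjusted p of 0.05 in edgeR against wild type, by genotype alone, where 1.92%, 1.93% and 2.17% of all genes passed for ASH1 WT, ΔBAH and ΔBAH mutAT1. Counts at an unadjusted p below 0.05 were 0, 0, 0 and 1 for ASH1 WT, 0, 0, 0 and 1 for ΔBAH and 0 in every list for ΔBAH mutAT1, against 8.75%, 8.84% and 8.08% of all genes. DESeq2 and limma-voom called 0 of these genes as well, whereas the fits with block or with paired libraries called some. The medians for ΔBAH mutAT1 were -0.09, -0.19, -0.16 and -0.14 on the log2 scale against -0.0026 over all genes. Of the cascade, rl (the MAP kinase gene), cnk and Src42A were not tested and have no result here. The same holds for cic of the nuclear effectors and for salm, Dl, ab and cv-c of the vein and intervein list. With block as a covariate, 4 vein and intervein genes were lower in the transgenic mean, where 6.18% of all genes were called lower. They were salr, a spalt-family transcription factor gene of the central wing (-0.41, SE 0.10, adjusted p 0.0241), H, the antagonist of Notch signalling Hairless (-0.37, SE 0.08, adjusted p 0.0151), px, plexus, which limits vein formation (-0.30, SE 0.07, adjusted p 0.0199), and ara, an iroquois-family gene (-0.27, SE 0.08, adjusted p 0.0455), all in edgeR. In the same fit 2 genes from the list of negative regulators were lower, kek5 (-0.55, SE 0.14, adjusted p 0.0284 in edgeR) and Spred (-0.31, SE 0.09, adjusted p 0.0431 in edgeR). By line, that fit called H, salr and kek5 lower in ASH1 WT, H and bs in ΔBAH and px in ΔBAH mutAT1. Of all genes it called 3.63%, 3.02% and 3.12% lower in these lines. It also called rho-5 higher in ΔBAH mutAT1, where 3.33% of all genes were called higher. The gene bs encodes blistered, the serum response factor of intervein cells (-0.51, SE 0.13, adjusted p 0.0466 in edgeR in ΔBAH).

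With the 6 wild type and ΔBAH mutAT1 libraries paired by number, edgeR called 5 of 20 vein and intervein genes, 2 of 5 nuclear effectors, 1 of 10 negative regulators and 0 of 13 genes of the Ras and MAP kinase cascade, against 12.3% of all genes. At an unadjusted p below 0.05 the counts were 12, 3, 5 and 3 in the same order of lists. The share of all genes at that threshold was not taken for this fit, so these counts have no background beside them. It cannot be below the 12.3% called at the adjusted threshold. The unadjusted counts are therefore not read as a result about the lists. The vein and intervein genes were px (-0.33, adjusted p 0.0170 in edgeR), cv-2, a modulator of BMP signalling in crossveins (-0.26, adjusted p 0.0236), salr (-0.35, adjusted p 0.0275), mirr, an iroquois-family gene (-0.30, adjusted p 0.0291), and cv, a crossvein gene, which was higher (0.25, adjusted p 0.0361). The nuclear effectors were edl, whose product binds ETS factors of the pathway (-0.48, adjusted p 0.0225 in edgeR), and aop, an ETS repressor (-0.26, adjusted p 0.0310). From the list of negative regulators it was kek5 (-0.36, adjusted p 0.0248 in edgeR). Whether kek5 limits EGFR signalling was not tested. Apart from rho-5, the genes named from the fits with block or pairing fall outside the rule for naming genes, which used the fit by genotype alone. They were singled out after their values were seen.

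**Figure D5:**
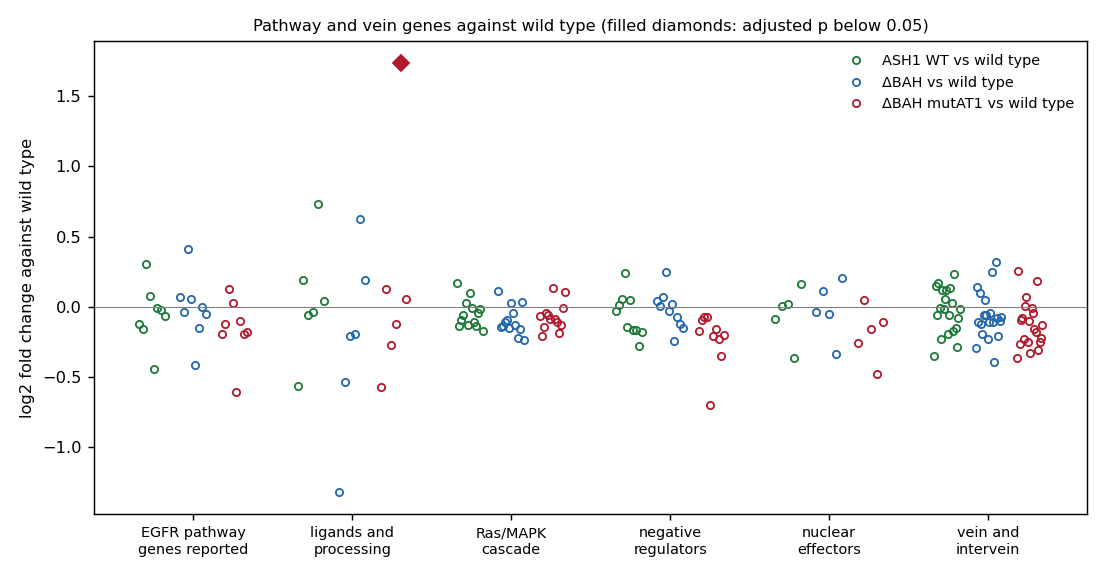
Log2 fold changes against wild type of the 8 genes and of the tested genes of 5 lists, one point per gene and comparison, from the edgeR fit by genotype alone; filled diamonds mark an adjusted p below 0.05. The single diamond is rho-5 in ΔBAH mutAT1 at 1.74, and the lowest point among the 8 genes is rho in ΔBAH mutAT1 at -0.61.

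Of the markers of other cell types, stumps, an adaptor of FGF receptor signalling in muscle precursors, passed in ΔBAH mutAT1, at -0.70 on the log2 scale (SE 0.15, adjusted p 0.0434 in edgeR). It was read at 67.4, 83.5 and 77.3 CPM in wild type and 40.5, 54.6 and 45.6 CPM in ΔBAH mutAT1, without overlap, and its adjusted p ran from 0.0366 to 0.209 when 1 library was left out, passing in 4 of 12 such fits. The fat body storage protein genes Lsp1beta (-3.95, adjusted p 0.0398 in edgeR) and Lsp1gamma (-5.22, adjusted p 0.0190 in edgeR) were lower in the transgenic mean, although groups overlapped; wild type replicate 2 had a fat body sum within the transgenic range. With 1 library left out they passed in 2 and 8 of 12 fits. With the 6 libraries paired, edgeR called 5 of 34 tested markers lower in ΔBAH mutAT1, stumps and zfh1 of muscle precursors, serp and verm of trachea and Lsp1gamma, and 1, PPO2, higher, against 12.3% of all genes called. None of the 8 genes is on these marker lists.

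The pattern of each gene over the 12 libraries was compared with that of every other tested gene by Pearson correlation of log2 CPM, as a description. The closest gene was Wnt5 for Egfr (r = 0.98), mew for vn (0.97), CG6753 for spi (0.91), CG12009 for rho (0.95), mdy for aos (0.92), fax for sty (0.98), Usp16-45 for pnt (0.99) and bsd for kek1 (r of 1.00 after rounding). The 12 libraries share the blocks, and the genes most affected by block had the most company: 763 genes had r above 0.9 with Egfr, 1188 with pnt and 1042 with kek1, against 69 with vn, 54 with sty and 1 each with spi, rho and aos. Since the libraries fall into blocks, correlations among the 8 genes are given only within block 3, over its 6 libraries. Of the 28 pairs 20 were positive, with r from -0.39 to 0.79. By an exact permutation test 1 pair, pnt with kek1, had an unadjusted p below 0.05 (r = 0.79, exact permutation p 0.0458), and after adjustment over the 28 pairs 0 did, the lowest adjusted p being 0.922. The 6 libraries come from 4 genotypes, and the smallest exact p they allow is 0.00278.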

How the data were processed

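Wing disc mRNA of 4 genotypes was measured in 12 libraries, 3 independent RNA samples each. The authors deposited raw read counts per gene: single-end reads were aligned with TopHat2 2.0.9 to dm3 and counted with HTSeq 0.5.4p3 on Ensembl genes, per the labels and the study's methods, with the strand setting and the handling of multiply mapped reads not given in the sources used here. Groups came from the sample labels. The 8 genes and the lists were chosen with earlier results of these data known.

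Genes were filtered with filterByExpr (minimum count 10), scaled by TMM and tested with edgeR 4.0.16 (quasi-likelihood test, R 4.3.3) with 1 coefficient per genotype over all 12 libraries. Fold changes used a prior count of 0.125, and p-values were adjusted by Benjamini-Hochberg over the 8346 genes kept, with 0.05 as the threshold. The common coefficient of variation between libraries was 32.0%, and 14.4% with block in the model. RPKM used BDGP6 exon lengths, which 13524 of 14869 identifiers have. No 2 libraries were copies: over all 66 pairs the chi-square per degree of freedom of their counts was at least 12.2. The procedure was tested on simulated counts for ΔBAH mutAT1 against wild type. With the spread of the genotype fit it recovered 0 of 50 genes changed 1.5-fold and 10 of 50 changed 2-fold. With the smaller spread of the fit with block, again tested by genotype alone, it recovered 25 and 37 of 50. Neither simulation held differences between blocks, so these counts do not give the recovery of the fit with block. A gene that was not called by genotype alone can still differ 1.5-fold or 2-fold. Library totals were 15083960 to 17828101 counts in block 3 and 27871145 to 39180697 in blocks 1 and 2. A given CPM thus rests on the fewest counts in block 3.

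Alternatives were RLE scaling, no filter, a prior count of 2, limma-voom (limma 3.58.1), DESeq2 1.42.0, only the libraries compared, replicate number or block as a term, and each library left out. Fits without the block 1 libraries and a paired fit of 6 libraries were added after the data had been seen. Replicate numbers from the titles pair wild type with ΔBAH mutAT1 (correlations of deviations from the group means 0.42, 0.44 and 0.49) and ASH1 WT with ΔBAH (0.81, 0.59 and 0.49). Other pairs of groups had correlations of both signs and were not taken as paired. In these, libraries of the same number correlated at 0.43 to 0.50 where they shared a block and at -0.45 to 0.085 where they did not. The correlations thus follow block. Replicates 2 and 3 of ASH1 WT and ΔBAH all lie in block 3, so block does not set how they pair. Named genes were the 8, list genes with an adjusted p below 0.05 in at least 1 comparison by genotype alone, and the gene most alike to each of the 8. Listed genes that found no match by current identifier were not analysed here. No sequences were used here.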

Additional observations from a re-analysis of the deposited data

How the results depend on the processing

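The direction of rho against wild type was kept in all 89 values computed under alternatives, from -0.69 to -0.33 on the log2 scale over the single lines and the transgenic mean. These values reuse the same libraries, where every transgenic library lay below every wild type library. The direction could hardly change, so its constancy is not separate evidence. The count of the 8 genes called was 0 by genotype alone and became 1, rho, for ΔBAH mutAT1 under the block covariate, DESeq2 and the paired fit of 6 libraries with a replicate block, and 1 for the transgenic mean under the block covariate and DESeq2. It stayed at 0 in these comparisons under the other alternatives, and no other comparison called any of the 8. With single libraries left out, the adjusted p of rho in edgeR ran from 0.100 to 0.410 for ΔBAH mutAT1 and from 0.0583 to 0.372 for the transgenic mean, and without both block 1 libraries the edgeR block covariate no longer called it (adjusted p 0.160 and 0.115). The replicate block over all 12 libraries changed no call of the 8. The counts over all genes changed by over 1.5 times. For ASH1 WT, ΔBAH, ΔBAH mutAT1 and the transgenic mean against wild type they were 160, 161, 181 and 263 by genotype alone, 609, 522, 538 and 927 with block, 310, 330, 313 and 461 with DESeq2, and 67, 68, 60 and 99 without block 1. The paired fit gave 1014 for ΔBAH mutAT1. With only the libraries compared they were 90 for ASH1 WT and 99 for ΔBAH. Between the transgenic lines the counts were at most 15 under any alternative. The cause of these changes was not tested. Of 56 fold changes of the 8 genes and 1248 alternative values, 130 had the opposite sign, none of them called (lowest adjusted p 0.407), and their log2 values follow. With RLE size factors they were spi 0.000498 for ASH1 WT against wild type, sty 0.015 for ΔBAH against wild type. In the fit with block as a covariate they were spi 0.14 for ASH1 WT against wild type, spi 0.0065 and pnt -0.16 for ΔBAH against wild type, kek1 -0.011 for ΔBAH against ASH1 WT, Egfr 0.17, spi -0.10, aos 0.012 and kek1 0.093 for ΔBAH mutAT1 against ΔBAH, pnt 0.16 and kek1 0.082 for ΔBAH mutAT1 against ASH1 WT, spi 0.017 for the transgenic mean. With limma-voom they were spi 0.0077 for ASH1 WT against wild type, pnt -0.017 for ΔBAH against wild type, kek1 -0.0056 for ΔBAH against ASH1 WT, pnt 0.033 for ΔBAH mutAT1 against ASH1 WT. With DESeq2 they were spi 0.000437 for ASH1 WT against wild type, sty 0.016 for ΔBAH against wild type. With only the libraries compared they were spi 0.011 for ASH1 WT against wild type, sty 0.013 for ΔBAH against wild type. Without the block 1 libraries they were spi 0.18, sty 0.036 and kek1 0.088 for ASH1 WT against wild type, spi 0.037, sty 0.056 and kek1 0.10 for ΔBAH against wild type, spi 0.0055 for ΔBAH mutAT1 against wild type, spi -0.031 and aos 0.0086 for ΔBAH mutAT1 against ΔBAH, spi 0.074 for the transgenic mean. With block as a covariate and without the block 1 libraries they were spi 0.21 for ASH1 WT against wild type, spi 0.074 and pnt -0.14 for ΔBAH against wild type, kek1 -0.011 for ΔBAH against ASH1 WT, Egfr 0.12, spi -0.080, aos 0.014 and kek1 0.057 for ΔBAH mutAT1 against ΔBAH, pnt 0.14 and kek1 0.046 for ΔBAH mutAT1 against ASH1 WT, spi 0.093 for the transgenic mean. With replicate number as a block they were pnt -0.000725 for ΔBAH against wild type, kek1 -0.018 for ΔBAH against ASH1 WT, kek1 0.0014 for ΔBAH mutAT1 against ΔBAH. With the paired libraries alone and the replicate block they were kek1 -0.011 for ΔBAH against ASH1 WT. With 1 library left out at a time for ASH1 WT against wild type Egfr ran from -0.30 to 0.091, spi from -0.11 to 0.18, sty from -0.15 to 0.070, pnt from -0.47 to 0.20 and kek1 from -0.44 to 0.33. For ΔBAH against wild type Egfr ran from -0.28 to 0.28, spi from -0.25 to 0.035, sty from -0.16 to 0.15, pnt from -0.14 to 0.39 and kek1 from -0.38 to 0.38. For ΔBAH mutAT1 against wild type Egfr ran from -0.22 to 0.059, spi from -0.20 to 0.065, aos from -0.098 to 0.087, pnt from -0.44 to 0.0036 and kek1 from -0.50 to 0.14. For ΔBAH against ASH1 WT Egfr ran from -0.13 to 0.42, vn from -0.088 to 0.31, rho from -0.11 to 0.097, aos from -0.077 to 0.041, sty from -0.13 to 0.16, pnt from -0.13 to 0.54 and kek1 from -0.39 to 0.43. For ΔBAH mutAT1 against ΔBAH Egfr ran from -0.40 to 0.15, spi from -0.061 to 0.17, aos from -0.15 to 0.036 and kek1 from -0.56 to 0.20. For ΔBAH mutAT1 against ASH1 WT Egfr ran from -0.22 to 0.18, spi from -0.18 to 0.030, aos from -0.17 to 0.013, pnt from -0.40 to 0.28 and kek1 from -0.51 to 0.26. For the transgenic mean Egfr ran from -0.21 to 0.076, spi from -0.19 to 0.093, sty from -0.20 to 0.020, pnt from -0.25 to 0.12 and kek1 from -0.42 to 0.16. Depth limits the values of rho and rho-5, which had 242 and 11 counts in their lowest libraries.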
